A study of Mus musculus with 12 samples.

Results

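The expression state of B16-F10 cells, an established and pigmented mouse melanoma line, was described from the 4 arrays of cells transfected with the empty vector, out of 12 arrays in the series. The members were chosen by the sample titles alone, which name these 4 arrays as the control transfection. The other 8 arrays, of cells given FoxD3 or FoxD3-VP16, entered only as an alternative normalization. The line is the one held by the American Type Culture Collection, and it was grown in DMEM with bovine growth serum. The empty vector, pMES, carries the chick beta-actin promoter and an internal ribosome entry site followed by EGFP, so these control cells also made EGFP. RNA was taken with Trizol from EGFP-positive cells collected by flow sorting 24 hours after transfection. All values therefore describe cells that had taken up plasmid DNA, of 1 line, and untransfected cells were not analysed here. The labels do not say whether the 4 replicates were separate cultures, and every p-value therefore rests on array-to-array spread alone, some or all of which may be technical.

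Melanocytes arise from the neural crest and make melanin in melanosomes, organelles related to lysosomes. The transcription factor MITF, itself driven by SOX10 and PAX3, activates the pigment genes through short DNA elements with the core CATGTG. Melanoma lines differ in how much of this program they keep, and a loss of it often goes with mesenchymal genes and the receptor kinase AXL.

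The CATGTG core is shown first for 4 pigment genes, because these genes were bright in these cells and the core was common in their promoters. Each line gives the 250 bases before the gene start in the RefSeq promoter table, build GRCm38.p6, 5′ to 3′ on the gene's own strand, with the core or its reverse complement in capitals. Tyr, Tyrp1 and Dct encode the 3 melanin enzymes, and Mc1r encodes the melanocortin receptor that raises their activity.
Tyr: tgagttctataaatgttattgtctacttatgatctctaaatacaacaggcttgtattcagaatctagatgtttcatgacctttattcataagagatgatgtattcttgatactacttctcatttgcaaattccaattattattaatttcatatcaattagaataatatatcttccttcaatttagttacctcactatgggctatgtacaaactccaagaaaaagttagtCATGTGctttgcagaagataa
Tyrp1: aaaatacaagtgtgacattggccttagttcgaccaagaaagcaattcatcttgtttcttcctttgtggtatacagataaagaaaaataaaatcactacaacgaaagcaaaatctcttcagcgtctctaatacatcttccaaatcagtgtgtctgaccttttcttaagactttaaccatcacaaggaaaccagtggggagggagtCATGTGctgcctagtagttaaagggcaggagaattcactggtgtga
Dct: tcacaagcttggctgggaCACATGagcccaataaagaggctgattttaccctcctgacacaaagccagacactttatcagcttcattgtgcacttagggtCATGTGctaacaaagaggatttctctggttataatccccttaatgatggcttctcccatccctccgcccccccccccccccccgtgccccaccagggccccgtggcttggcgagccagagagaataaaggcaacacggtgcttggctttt
Mc1r: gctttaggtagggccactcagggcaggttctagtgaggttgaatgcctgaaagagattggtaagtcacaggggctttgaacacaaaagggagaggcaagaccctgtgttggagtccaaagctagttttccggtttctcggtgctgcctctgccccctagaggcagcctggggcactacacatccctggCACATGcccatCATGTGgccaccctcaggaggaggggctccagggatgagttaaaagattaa
Tyr lay on the minus strand at chr7:87493513-87493762, Tyrp1 on the plus strand at chr4:80833963-80834212, Dct on the minus strand at chr14:118052247-118052496 and Mc1r on the plus strand at chr8:123406832-123407081. The core began at position -21 from the gene start in Tyr and at -46 in Tyrp1. Dct held it at -232 and -150, and Mc1r at -62 and -51. Of the 13 measured pigment genes 9 had a promoter window of 300 bases, 250 before and 50 after the start. CATGTG, searched on both strands, stood in 7 of these 9 windows, in Tyr, Tyrp1, Dct, Oca2, Trpm1, Slc7a11 and Tspan10, and not in those of Gpnmb and Atp7a. It stood in 9.99% of the windows of all 14452 genes that had one. The share was 7.88% for genes above background and 14.2% for genes below the background limit. In the list of melanosome biogenesis and transport it stood in 1 of 17 windows (5.88%), and in the keratinocyte list in 3 of 7 (42.9%). Mc1r is not among the 9 but on the list of melanocyte receptors and ligands, where CATGTG stood in 2 of 12 windows (16.7%). A match describes the letters and is not a measured binding site.

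Levels are given as log2(intensity + 16) after quantile normalization over the 4 arrays. One probe set stands for each of 18193 genes, the one with the highest mean. Probe sets differ in affinity, so a rank between genes describes probe set signal and not the number of transcripts. Background was set on each array at the 95th percentile of 39 olfactory receptor genes, which encode odour receptors of the nose. This limit was 6.65, 5.96, 5.84 and 5.97 on arrays 1 to 4. By limma with Benjamini-Hochberg adjustment over all 18193 genes, 9563 genes (52.6%) lay above the limit, 4906 (27%) lay below it and 3724 (20.5%) could not be told from it. Taking the brightest probe set of a gene favours a call above the limit. Of 6256 genes called above that had several probe sets, 3673 had at least 1 not over the limit on all 4 arrays. The median level of all genes was 7.35. Of the olfactory receptor genes 0 lay above the limit and 30 below it. The limit was taken from these same genes, so this count is no check of it. The same limma test gave an unadjusted p under 0.05 for 14700 of the 18193 genes.

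**Figure D1:**
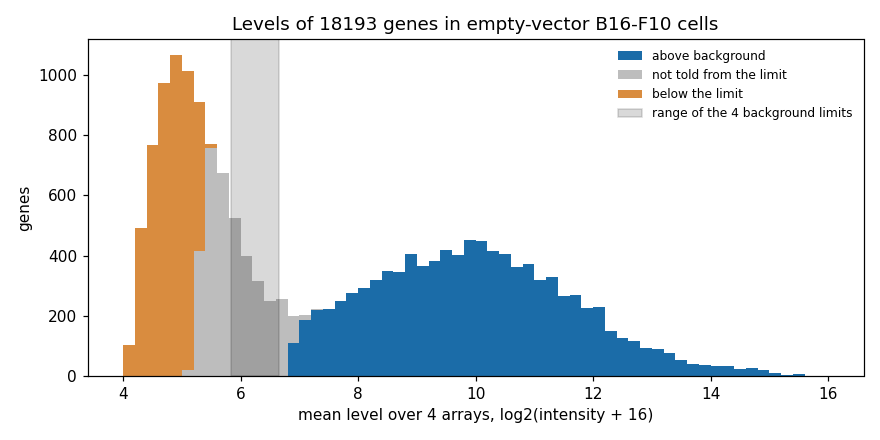
Histogram of the mean level of 18193 genes over the 4 empty-vector arrays, on a log2 intensity axis, with the number of genes on the other axis and the colour giving the call. The 4906 genes below the limit form a narrow peak left of the grey band, which spans the 4 limits from 5.84 to 6.65, and the 9563 genes above it spread up to 15.74.

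Array 1 stood apart from the other 3. Its hybridization controls, spiked in after labelling, read 14.5 against 12.8, 11.7 and 11.6 on arrays 2 to 4, and its 18S rRNA probe sets 12.9 against 9.70 to 9.96. Gapdh probe sets at the 3′ end exceeded those at the 5′ end by 0.66 on array 1 and by between -0.25 and 0.04 on the others. For Actb the same difference was 1.59, 1.56, 1.52 and 1.29 on arrays 1 to 4, so array 1 did not stand apart there. Levels across genes correlated at 0.945 to 0.948 (Pearson's r) between array 1 and the others, at 0.966 and 0.968 between array 2 and arrays 3 and 4, and at 0.982 between arrays 3 and 4; genes are not independent replicates. The median SD over the 4 arrays was 0.43 for all genes, 0.33 for genes above background and 0.27 for the 1820 brightest genes. Without array 1 the last value was 0.17. Whether these array differences affect the gene levels was not tested, and the number of arrays limits the precision of every level.

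Pigment genes were among the brightest of the whole transcriptome. All 13 measured genes of the pigment enzyme and melanosome structure list lay above background, with a median level of 13.35. Dct, which encodes dopachrome tautomerase, read 15.32, 15.80, 15.59 and 15.59 on arrays 1 to 4 and ranked 2 of 18193 genes. Tyrp1, the related enzyme that acts after it in eumelanin synthesis, read 15.46, 15.35, 15.46 and 15.43 and ranked 6. These 2 genes exceeded the limit by 9.47 ± 0.27 and 9.32 ± 0.25 (SE, n = 4; limma, adjusted p = 6.413e-11 for each). Their SDs over the 4 arrays were 0.20 and 0.05, far less than their distance from the limit.

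Gpnmb, a melanosome glycoprotein, ranked 7 at 15.29 ± 0.32 (SD, n = 4). Pmel, whose protein builds the fibrils on which melanin is laid down, ranked 19 at 14.97 ± 0.40. Mlana, a melanosome membrane protein, ranked 22 at 14.94 ± 0.17. Thus 5 of the 30 brightest genes were pigment genes. Tyr, the rate-limiting enzyme of melanin synthesis, was dimmer than these on every array, at 13.32, 14.17, 13.50 and 13.48, and ranked 227. The ion transporters of the melanosome came lower: Slc45a2 at 13.35 ± 0.34, the copper pump Atp7a at 11.60 ± 0.32 and Oca2 at 9.19 ± 0.53. The dimmest member in these data was Slc7a11, the cystine transporter used in pheomelanin synthesis. It read 9.10, 10.52, 8.07 and 8.36, highest on array 2.

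The machinery that builds and moves melanosomes was above background almost as a whole. Of 21 measured members 20 lay above the limit, with a median of 10.72, and Hps6 at 6.35 ± 0.49 could not be told from it. Rab38, a small GTPase that carries the melanin enzymes to the melanosome, led the list at 14.33, 14.27, 14.18 and 14.29. Subunits of the AP-3 sorting adaptor followed, with Ap3d1 at 12.24 and Ap3b1 at 11.70. The transport complex that ties melanosomes to actin was present with all 3 of its parts, Mlph at 11.66, Myo5a at 11.52 and Rab27a at 11.36.

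Of 14 melanocyte transcription factors 9 lay above the limit, 4 below it and 1 could not be told from it. The share above was 64.3%, against 52.6% of all genes. Mitf read 13.20, 13.15, 13.65 and 13.63 and ranked 280, the highest of the list. Sox10 followed at 12.70, 12.74, 12.58 and 12.64, and Pax3 at 12.04, 12.19, 11.88 and 11.95. All 3 factors kept within an SD of 0.27 over the 4 arrays. Tfap2a, an AP-2 factor of crest and pigment cells, stood at 11.32 ± 0.17 and Snai2, a zinc-finger factor needed for melanoblast migration, at 10.11 ± 0.31. Sox9 was close to the limit. It read 5.96 on array 1, under that array's limit, and 7.84, 7.69 and 7.06 on the others, with an adjusted p of 0.03874 by limma. Its call was lost in 6 of 14 alternatives, among them leaving out array 2 (difference 0.75) or array 3 (0.81). Lef1, the Wnt-dependent partner of MITF, was not told from the limit at 5.68 ± 0.99. Otx2 and Tfec, factors of the pigmented eye, lay below it at 4.32 and 4.15.

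**Figure D2:**
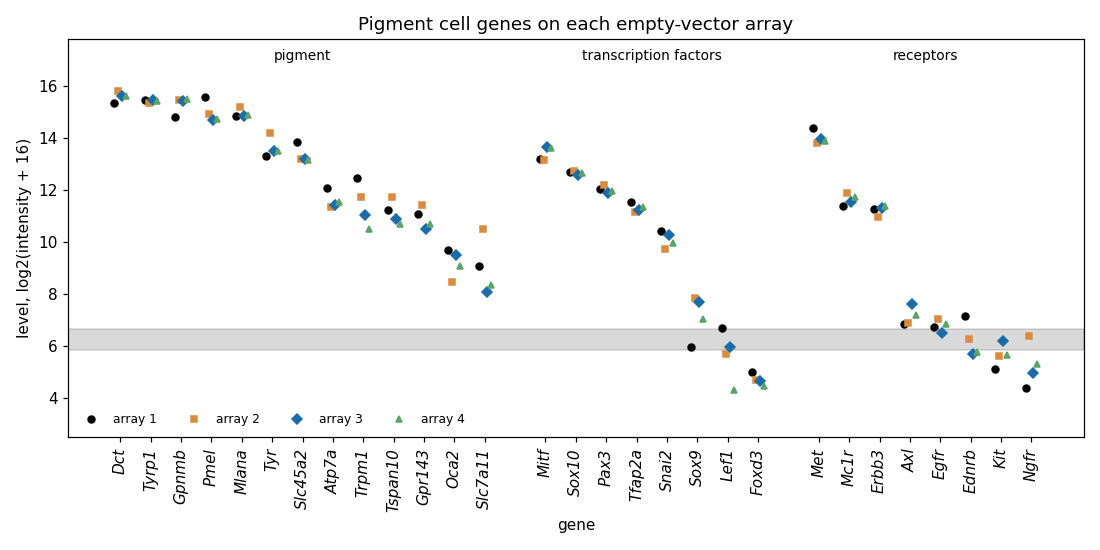
Level of pigment genes, transcription factors and receptors on each of the 4 empty-vector arrays, 1 symbol per array, on a log2 intensity axis; the grey band spans the 4 background limits. Dct, Tyrp1, Gpnmb, Pmel and Mlana sit at 14.68 to 15.80, Mitf, Sox10 and Pax3 between 11.88 and 13.65, and Kit, Ngfr and Foxd3 lie in or under the band.

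Most genes on the list of melanocyte receptors and their ligands were not above background. Of 15 measured receptors and ligands 5 lay above the limit, 2 below it and 8 could not be told from it. The share above was 33.3%, against 52.6% of all genes. Those above were the receptors Met, Mc1r, Erbb3 and Igf1r and the ligand gene Pomc. Met, the receptor of hepatocyte growth factor, was the brightest at 14.36, 13.79, 13.95 and 13.86, and ranked 154. Its ligand Hgf lay below the limit at 5.07 ± 0.53, a call that was lost without array 2, 3 or 4 (differences -0.85, -0.92 and -0.88). Mc1r stood at 11.63 ± 0.23, Erbb3, a neuregulin receptor of the crest, at 11.23 ± 0.18, and Igf1r at 8.54 ± 0.18. Pomc, which encodes the precursor of the melanocortins, was above the limit at 7.03, but not without array 2, 3 or 4 (differences 0.88, 0.66 and 0.79).

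Kit, the receptor of stem cell factor on which melanoblasts depend, read 5.12, 5.64, 6.22 and 5.68. It exceeded the limit only on array 3 and was not told from it (difference -0.44 ± 0.36, SE, n = 4; limma adjusted p = 0.2736). Ednrb, the endothelin receptor of early melanoblasts, read 7.18, 6.26, 5.72 and 5.77 and was not told from it either. Their ligands Kitl at 6.46 and Edn3 at 5.36 were likewise not told from the limit, although Edn3 was below it in 5 of 14 alternatives, one of them without array 2.

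Most neural crest factors outside the pigment lineage were dim. Of 22 measured members 7 lay above the limit, 8 below and 7 could not be told from it, a smaller share above than the 52.6% of all genes. Ets1, an ETS factor of the crest, was the brightest at 13.44 ± 0.37 (SD, n = 4) and ranked 269. Alx1, a homeobox factor of the cranial crest, stood at 11.15 ± 0.11 and Id2, an inhibitor of helix-loop-helix factors, at 10.60. Foxd3 itself, the early crest forkhead factor that the study introduced in its other arms, read 5.03, 4.70, 4.65 and 4.48. It lay below the limit on every array (difference -1.39 ± 0.26, SE, n = 4; limma adjusted p = 0.0004114). Twist1, a mesenchymal helix-loop-helix factor, was also below it at 4.76.

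Genes of Schwann cells and glia, the sister lineage of melanocytes, were present in part. Of 14 measured members 8 lay above background (57.1%), 3 below and 3 could not be told from the limit. The share above was near the 52.6% of all genes. Cdh19, a cadherin of Schwann cell precursors that melanomas often keep, stood at 12.80 ± 0.38. S100b, a calcium-binding protein of glia and melanoma, stood at 10.51 ± 0.63. Mbp, myelin basic protein, read 12.59 and 12.26 on arrays 1 and 2 but 9.74 and 10.04 on arrays 3 and 4, so the arrays fell into pairs. Ngfr, the nerve growth factor receptor of crest stem cells, was not told from the limit at 5.28 ± 0.85, nor were Egr2 and Gfap. Olig1 lay below it at 4.17.

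The list for the invasive, dedifferentiated melanoma state had 11 of 21 measured members above background (52.4%), 3 below and 7 not told from the limit, a share near the 52.6% of all genes. Vim, the intermediate filament vimentin, stood at 14.55 ± 0.29, Sparc, a matrix glycoprotein, at 13.05, the AP-1 factor Jun at 11.46, the Hippo pathway factor Tead1 at 11.15 and Cdh2, N-cadherin, at 10.82. The receptors that mark the state were dim. Axl read 6.85, 6.91, 7.62 and 7.20, over the limit on all 4 arrays by 1.05 ± 0.33 (SE, n = 4; limma adjusted p = 0.01218). This call was lost without array 3 (difference 0.79), and with the mean of its 2 probe sets the difference turned to -0.08. Egfr, at 6.74, 7.04, 6.50 and 6.86, was not told from it, although without array 1 it was above by 0.92. Wnt5a, a ligand of the state, was not told from it at 5.78, and the matrix protein Tnc and the AP-1 subunit Fosl1 lay below it, the latter at 4.93.

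Hox genes, which set position along the body axis, were measured for 33 members. Of these 10 lay above the limit (30.3%, against 52.6% of all genes), 16 below and 7 could not be told from it. Hoxa3, Hoxa5 and Hoxa10 were the brightest, at 9.23, 9.18 and 9.18, and Hoxd13 stood at 8.64. They came from the A, B and D clusters, and no measured member of the C cluster lay above the limit. With a limit taken from silent tissue genes the count above it fell to 6.

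The 30 brightest genes other than those of pigment were largely those of protein synthesis. Of the 30, 12 encode ribosomal proteins, as do 29 of the 100 brightest, out of 48 such symbols measured. Eef1a1, the elongation factor that brings tRNA to the ribosome, was the brightest gene on average at 15.80, 15.62, 15.82 and 15.72. The chaperone Hspa8, the glycolytic enzyme Pgk1, the catenin Ctnnb1, the thymosin Tmsb10 and the lectin Lgals1 were also among the 30. For Tmsb10 the rank rests on probe sets that can cross-hybridize: without them its difference from the limit was -0.54. Plagl1, an imprinted zinc-finger gene expressed from the paternal copy, ranked 24 at 14.93 ± 0.28. Its 3 probe sets were all over the limit, but the dimmest had a mean of 8.44. Other imprinted genes were mostly dim: 6 of 20 on the list lay above the limit (30%, against 52.6% of all genes). Sgce at 11.17 and Igf2r at 11.05 came next after Plagl1, while Igf2 at 5.80 and Meg3 at 6.25 were not told from the limit.

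The core of the Ras and ERK cascade, the main growth pathway of melanoma, was above background in all 15 measured members, with a median of 10.67. Braf read 10.69, 11.35, 11.81 and 11.83, and Nras 11.37, 10.97, 10.45 and 10.34. Arrays 1 and 2 were thus lower for Braf and higher for Nras than arrays 3 and 4. Expression says nothing of the alleles these genes carry. Of 22 ERK feedback and target genes 17 lay above the limit (77.3%, against 52.6% of all genes), 2 below and 3 were not told from it. Phlda1 led at 13.77 ± 0.33, followed by the ERK phosphatases Dusp6 at 11.79 and Dusp4 at 11.47. Ccnd1, cyclin D1, stood at 11.30 ± 0.48 and Myc at 10.40 ± 0.33. The ETS factor Etv4 lay below the limit, while Etv5, Spry4 and Dusp5 were not told from it.

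The PI3K, Akt and mTOR core lay above background in 17 of 18 measured members, with Rheb at 12.71, Eif4ebp1 at 12.61, Rictor at 12.16 and Akt1 at 11.75. Only Inpp5d, a phosphatase of blood cells, was not told from the limit. Of 45 receptor tyrosine kinases 13 were above (28.9%), 16 below and 16 not told from it. Of all genes 52.6% lay above and 27% below. After Met the brightest were the ephrin receptor Epha3 at 12.11 and the collagen receptor Ddr2 at 11.78.

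The melanocortin and cyclic AMP pathway, which links MC1R to Mitf, lay above background in 18 of 19 measured members. Gnas, the stimulatory G protein subunit, stood at 14.19, the kinase subunit Prkar1a at 13.04 and the transcription factor Creb1 at 11.61. The value of Gnas rests on probe sets shared with related transcripts, and without them it exceeded the limit by only 0.07. Pde3b, a phosphodiesterase of fat and liver, was below the limit at 5.17, but not told from it without array 1 or 4 (differences -0.72 and -0.70).

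Shares above background in the developmental pathways were 61.5% for Wnt, 50% for Notch, 66.7% for TGF-beta and BMP and 40% for Hedgehog genes. Over all genes the share was 52.6%. In the Wnt pathway 16 of 26 members lay above background, led by Ctnnb1, beta-catenin, at 14.94 ± 0.13. The ligands Wnt4 and Wnt5a were not told from the limit, and the transducer Dvl3 lay below it at 4.94. In the Notch pathway 11 of 22 members were above, among them Notch2 at 9.98 and Jag1 at 8.85. For TGF-beta and BMP signalling 20 of 30 were above, with Bmpr2 at 12.20 and Smad4 at 11.89, while the ligands Bmp2 and Bmp4 were below, at 4.58 and 4.53, and the ligands Tgfb2 and Tgfb3 above, at 8.63 and 7.57. Of 10 Hedgehog genes 4 were above, the receptor Ptch1 at 10.53 among them. The target gene Gli1, at 6.15, was not told from the limit.

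**Figure D3:**
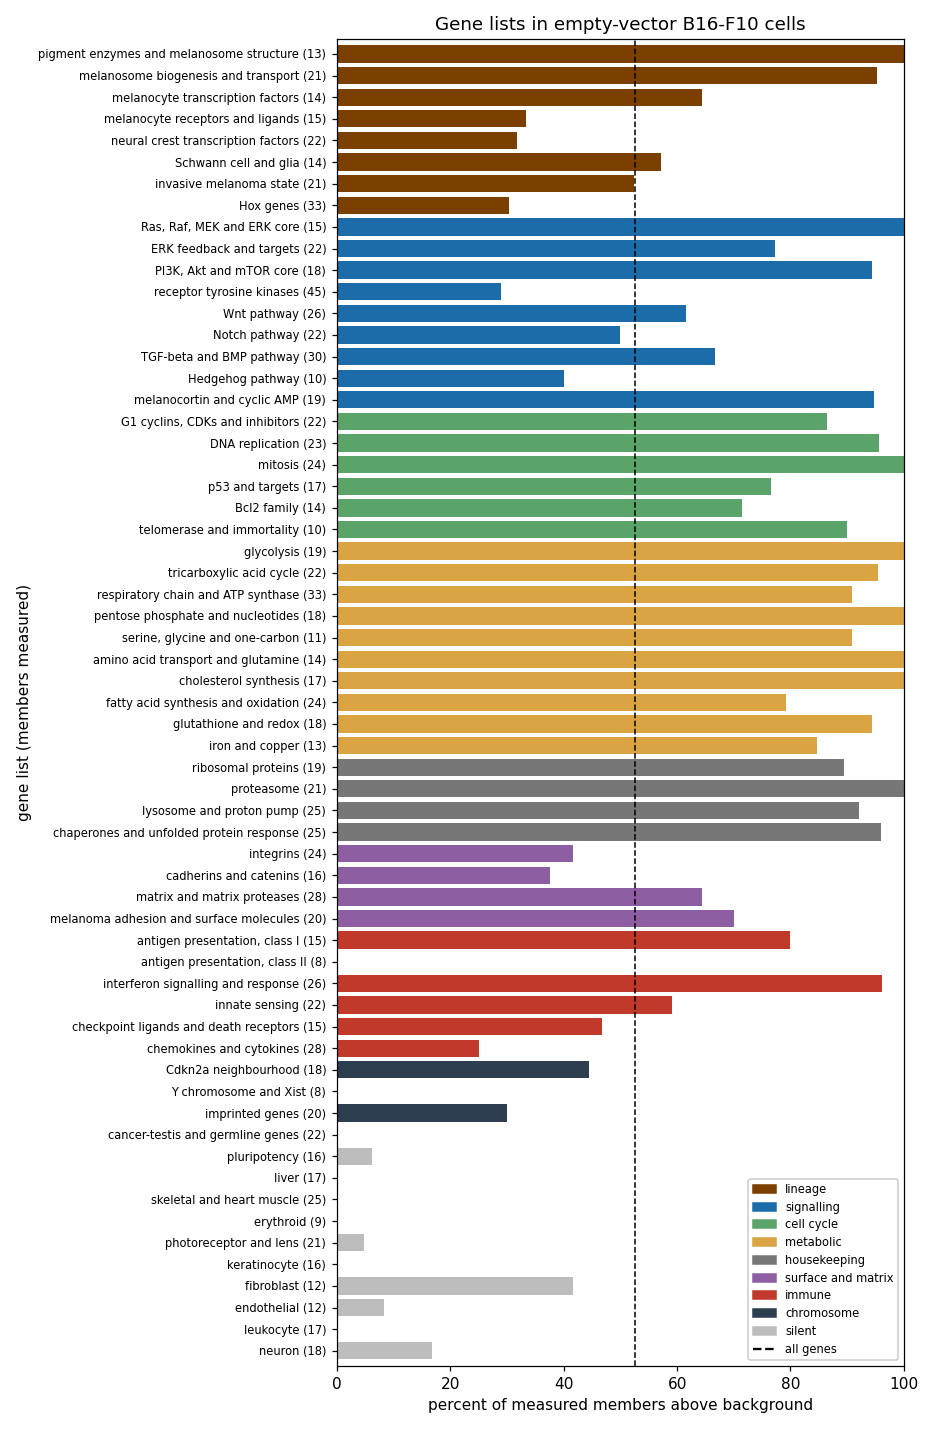
Percent of measured members above background for each of 61 gene lists, coloured by class, with the number of measured members in brackets; the dashed line marks the 52.6% of all genes. The pigment, glycolysis, mitosis and proteasome lists reach 100%, and 8 lists lie at 0, among them those of liver, muscle and leukocytes, while the fibroblast list lies at 41.7%.

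Cell cycle genes were bright. All 24 measured mitotic genes lay above background, with a median of 10.80, and so did 22 of 23 DNA replication genes. Cdc20, the activator of the anaphase-promoting complex, stood at 12.52 ± 0.23 and Mki67, the proliferation antigen, at 12.46 ± 0.58. Pcna, the sliding clamp of replication, stood at 14.22. Of 22 G1 cyclins, kinases and inhibitors 19 lay above the limit. Ccnd2, cyclin D2, led at 13.13, 13.80, 13.42 and 13.46. Cdkn1a, the p21 inhibitor that p53 induces, was bright beside the mitotic genes, at 12.92, 12.19, 13.60 and 13.53.

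The 2 inhibitors of the Ink4 locus were at background. Cdkn2a, which encodes p16 and p19Arf, read 5.22, 4.09, 4.08 and 4.86, below the limit on every array (difference -1.54 ± 0.27, SE, n = 4; limma adjusted p = 0.0001906). Cdkn2b, its neighbour that encodes p15, stood at 4.78 ± 0.29 and was below as well (adjusted p = 0.0009757). Each is read by 1 probe set here. Mtap, the next gene on the chromosome, read 13.56, 12.40, 12.66 and 12.54 and ranked 545, with all 4 of its probe sets over the limit. Of 18 measured genes of the Cdkn2a neighbourhood 8 lay above background, 7 below and 3 were not told from it. The share above was 44.4%, against 52.6% of all genes. Those above included Klhl9 at 11.94 and Plin2 at 12.87. DNA copy number was not measured, so a missing gene and a silent one cannot be told apart.

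Targets of p53 were measured for 17 members, of which 13 lay above background (76.5%, against 52.6% of all genes). Trp53inp1 stood at 13.21 ± 0.75, Ccng1, cyclin G1, at 13.12 ± 0.76 and Mdm2, the ligase that degrades p53, at 11.82 ± 0.86. Genes of cell death on the list ranged widely. Ei24 stood at 12.13 and Aen, an apoptosis nuclease, at 10.71. Bbc3, Puma, stood at 8.74, Fas at 5.58 was not told from the limit and Pmaip1, Noxa, lay below it at 4.39. Among Bcl2 family genes 10 of 14 were above background (71.4%), led by the survival factors Mcl1 at 12.25 and Bcl2 at 10.65. Of 10 telomerase and telomere genes 9 were above. Tert, the catalytic subunit, was not told from the limit, at 6.06 ± 0.60.

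Metabolic genes of both fermentation and respiration were bright. All 19 measured glycolysis genes lay above background, led by the kinase Pgk1, which ranked 18 of all genes, and followed by Aldoa at 14.53, Ldha, lactate dehydrogenase, at 14.37 ± 0.28 and Tpi1 at 14.31. Of the citric acid cycle 21 of 22 were above, and of the respiratory chain and ATP synthase 30 of 33, with a median of 13.13. The 3 exceptions, Cox4i2, Cox7a1 and Cox8b, are subunit forms of lung or muscle. Ppargc1a, a coactivator of mitochondrial genes that MITF can induce, read 9.87 and 9.97 on arrays 1 and 2 and 11.35 and 11.28 on arrays 3 and 4.

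All 18 pentose phosphate and nucleotide genes, all 17 cholesterol synthesis genes and all 14 amino acid transport and glutamine genes lay above background. Of the serine and one-carbon genes 10 of 11 did. Phgdh, the first enzyme of serine synthesis, read 14.02, 14.25, 13.02 and 13.18. Gldc, which splits glycine, lay below the limit at 5.05, a call lost without array 3 (difference -0.88). Among 24 fatty acid genes 19 were above, led by the desaturase Scd2 at 14.17. The lipase Lpl and the fat cell factor Pparg lay below, the latter at 4.61. Of 18 redox genes 17 were above, and of 13 iron and copper genes 11, with the ferritin chain Fth1 at 14.58.

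Housekeeping systems gave the reference for a bright program. All 21 proteasome genes, 24 of 25 chaperone genes and 17 of 19 ribosomal protein genes on the lists lay above background. The exceptions were Hspa1a, a heat shock gene, Rpl3l, a form found in muscle, and Rps4l. The ribosomal list had a median of 14.54, above the 13.35 of the pigment list. Of 25 lysosome and proton pump genes 23 were above, with Npc2 at 13.99. Atp6v0d2 and Atp6v1b1, subunits of the proton pump of bone and kidney cells, were the exceptions.

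Surface genes differed by family, with shares above background on both sides of the 52.6% of all genes. Of 24 integrins 10 lay above background (41.7%), led by Itgav at 12.36, Itgb1 at 11.84 and Itga6 at 10.95. Of 16 cadherins and catenins 6 were above (37.5%). Cdh1, E-cadherin, which joins melanocytes to keratinocytes, was not told from the limit at 5.88, while N-cadherin was above it. Of 20 melanoma adhesion and surface molecules 14 were above (70%). Among them the hyaluronan receptor Cd44 stood at 13.07 ± 0.15 and the tetraspanin Cd81 at 13.24. Of 28 matrix and protease genes 18 were above (64.3%), with Adam9 at 13.07, Timp2 at 12.32 and the membrane protease Mmp14 at 11.68.

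Interferon response genes were among the bright programs of these transfected cells. Of 26 measured members of the interferon signalling and response list 25 lay above background, with a median of 9.85. Rsad2, the antiviral protein viperin, read 14.75, 13.28, 14.65 and 14.60 and ranked 98. Ifit1, which binds foreign RNA, read 13.96, 12.24, 13.72 and 13.69, and Ifit3 read 13.34, 10.92, 13.75 and 13.52. On all of these array 2 was the lowest. The chemokines Cxcl10 and Ccl5, which interferon and innate sensors induce, stood at 13.52 ± 0.57 and 13.26 ± 0.34. Of 28 chemokines and cytokines 7 lay above background (25%, against 52.6% of all genes). No untransfected cells were compared, so the part of transfection and sorting in these levels was not tested.

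The promoters of Rsad2 and Ifit1 are shown because they held the core of the interferon-stimulated response element, GAAA and again GAAA with any 2 bases between them, a motif chosen after the levels were seen. Each line again gives the 250 bases before the gene start, RefSeq build GRCm38.p6, 5′ to 3′ on the gene's strand, with the core or its reverse complement in capitals.
Rsad2: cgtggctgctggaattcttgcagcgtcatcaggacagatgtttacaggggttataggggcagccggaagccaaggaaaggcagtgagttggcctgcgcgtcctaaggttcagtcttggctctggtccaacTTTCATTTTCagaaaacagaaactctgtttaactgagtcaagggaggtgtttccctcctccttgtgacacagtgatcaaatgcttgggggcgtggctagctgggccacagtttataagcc
Ifit1: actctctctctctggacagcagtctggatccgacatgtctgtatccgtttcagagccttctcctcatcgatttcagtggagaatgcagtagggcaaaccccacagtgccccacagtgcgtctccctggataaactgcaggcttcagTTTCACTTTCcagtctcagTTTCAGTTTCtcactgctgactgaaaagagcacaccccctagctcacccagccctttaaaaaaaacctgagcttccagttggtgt
Rsad2 lay on the minus strand at chr12:26456453-26456702 and Ifit1 on the plus strand at chr19:34640639-34640888. The core began at -120 in Rsad2 and at -104 and -85 in Ifit1. It stood in 7 of 23 windows of the interferon list (30.4%) and in 3.02% of all windows. CATGTG stood in 1 of these 23.

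Genes that sense microbial ligands upstream of interferon were above background in part. Ifih1 and Ddx58, cytosolic RNA sensors, stood at 12.63 and 12.08, and Tlr3, a receptor of double-stranded RNA, at 9.76. Tlr4, the receptor of bacterial lipopolysaccharide, was close to Tlr3 at 9.54, while Tlr7, a receptor of single-stranded RNA, was not told from the limit at 5.67. The DNA sensor Cgas stood at 9.25 and its adaptor Sting1 at 8.91. Of 22 innate sensing genes 13 lay above background (59.1%), 3 below and 6 were not told from the limit. Of all genes 52.6% lay above it, a share near that of this list. Ifnb1, interferon beta, read 5.32 and 5.79 on arrays 1 and 2, under their limits, and 8.01 and 7.86 on arrays 3 and 4, over theirs. Il6 read 6.92, 4.21, 10.10 and 9.33, under the limit only on array 2. At the main settings neither was told from the limit over the 4 arrays. Il6 was above it over the 4 arrays with values as deposited (difference 1.68) and with a pseudocount of 64 (1.38). It was also above with a limit at the 99th percentile (1.32) or from silent tissue genes (0.79). Without array 1 Ifnb1 was above it by 1.38, and without array 2 Il6 was above it by 2.60.

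For class I antigen presentation 12 of 15 measured genes lay above background (80%, against 52.6% of all genes). B2m, the common light chain, read 14.65, 13.85, 14.10 and 14.16. The heavy chains H2-K1 and H2-D1 stood at 12.23 ± 0.38 and 12.12 ± 0.43; their probe sets belong to a family of near-identical genes and may share signal. Tapbp, Calr, Canx and Pdia3, which help load the peptide, were above the limit as well, at 11.38, 13.30, 14.12 and 13.15. The peptide transporter and the immunoproteasome subunits were dimmer. Tap1, a transporter subunit, read 9.15, 6.57, 9.04 and 8.51, lowest on array 2, and with the mean of its 4 probe sets it differed from the limit by -0.45. Tap2 at 6.39 and the immunoproteasome subunits Psmb8 at 5.60 and Psmb9 at 6.64 were not told from the limit, while another subunit, Psmb10, was above it at 9.22. Without array 1 Tap2 was above it by 0.77 and Psmb8 below it, at a difference of -0.85. Cd274, the checkpoint ligand PD-L1, stood at 7.79 ± 0.40, above the limit. By limma 0 of 8 class II genes lay above it, or 1 without array 1, and Ctss and H2-Ab1 lay below.

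Array 2 was low for several programs. Among all 9563 genes above background array 2 was the lowest of the 4 arrays for 26.5%, but for 16 of 25 interferon genes (64%), 13 of 17 ERK feedback genes (76.5%) and 10 of 13 p53 genes (76.9%). Array 2 was also the lowest for 6 of 7 neural crest factors (85.7%), 7 of 10 Hox genes (70%), 8 of 12 class I genes (66.7%) and 13 of 20 TGF-beta and BMP genes (65%). The median deviation of array 2 from the gene mean was -1.03 for the interferon genes, -0.87 for the p53 genes and 0.03 for all genes above background. Usp18, which restrains interferon signalling, read 12.87, 8.75, 12.79 and 12.52. Array 2 thus lay 3.77 below the lowest of the others. Mdm2 read 12.38, 10.54, 12.22 and 12.16.

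Over all genes above background 21 lay more than 2 log2 units below the other 3 arrays on array 2 and 5 lay as far above them; this count was made after the values were seen. The interferon-induced GTPases Gbp2, Gbp3, Igtp, Irgm1, Irgm2 and Iigp1 were among the 21, with Oasl1, Oasl2, Oas1b, Ifit3, Mx2 and Usp18. The 5 that were higher were Trib3, Nupr1 and Cth, genes of the integrated stress response, with Angptl6 and Cyb5r2. Without array 2 the last 2 were no longer above background (differences 0.62 and 0.82). Trib3 read 12.14 on array 2 and 8.97, 9.68 and 10.06 on the others. On arrays 3 and 4 there were 0 such genes. Why array 2 was low for these genes was not tested.

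Array 1 differed in another way, with 29 genes more than 2 log2 units above the other arrays and 27 below. Pik3cd, a PI3-kinase subunit of leukocytes, read 13.29 on array 1 and 7.39 to 7.90 on the others. E2f5, a cell cycle factor, read 13.63 against 8.90 to 9.07. Of the 6 probe sets of Pik3cd 2 were over the limit on all arrays. Mitotic genes were lowest on array 1 in 19 of 24 cases (79.2%), against 36.7% of all genes above background, with a median deviation of -0.65. Dlgap5, a spindle gene, read 6.01 there and 9.65 to 9.84 on the others. Cholesterol genes were lowest on array 3 in 15 of 17 cases (88.2%), against 21.3% of all genes above background, and highest on array 2 in 11 (64.7%), against 30.9%.

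**Figure D4:**
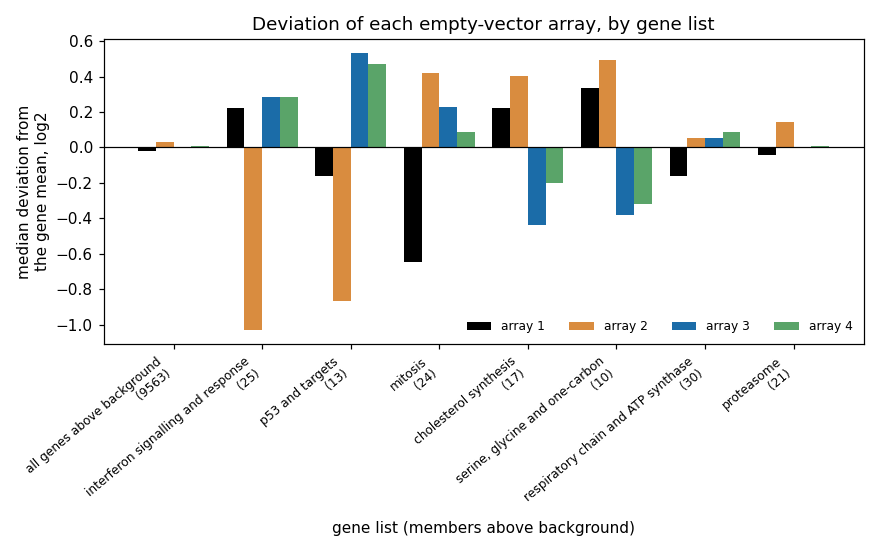
Median deviation of each empty-vector array from the mean of the 4, in log2 units, over the members above background of 8 gene sets, with their number in brackets. Array 2 lies at -1.03 for interferon genes and -0.87 for p53 genes, array 1 at -0.65 for mitotic genes and array 3 at -0.44 for cholesterol genes, while all 4 arrays lie near 0 for all genes above background.

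Programs of unrelated tissues were silent at this limit. By limma 0 of 17 liver, 25 muscle, 9 erythroid, 16 keratinocyte, 17 leukocyte and 22 cancer-testis and germline genes lay above background. Leaving out array 1 raised the liver, muscle, leukocyte and germline counts to 1 each, and leaving out array 4 did so for the keratinocyte list. Their medians lay between 4.87 and 5.36, against 7.35 for all genes. The single member above in the photoreceptor and lens list was Cryab, a small heat shock protein that is also a lens crystallin, at 12.93 ± 0.40. In the pluripotency list it was Klf4, at 6.05, 7.96, 7.65 and 7.43, below the limit of array 1, and its call was lost without array 2 (difference 0.87) or array 3 (0.95). The endothelial list had only Egfl7 above, at 7.90. Neuron genes above were Tubb3 at 9.29, Map2 at 7.76 and Syn1 at 7.31, of 18 measured. Map2 turned to -0.33 from the limit with the mean of its probe sets, and Syn1 lost its call without array 2 (difference 0.76). A gene not above the limit is not shown to be absent, because a dim probe set may fail to report its transcript.

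The markers of the cell types that the culture could hold were checked beside these lists. All 9 melanocyte markers lay above background, at 12.67 to 15.58. The measured keratinocyte, endothelial, leukocyte and neuron markers gave 0 above it, at 4.20 to 6.41. Of 7 fibroblast markers Col1a2 and Pdgfrb lay above, while Col3a1, Dcn and Lum lay below, and Col3a1 was not told from the limit without array 1 or 2 (differences -0.50 and -0.72). The summed level of all 7 was 9.05 to 9.52 on the 4 arrays, against 17.83 to 17.97 for the melanocyte markers. Schwann cell markers were the other bright set. The 3 measured, Mbp, S100b and Cdh19, were all above background at 10.51 to 12.80, and their summed level was 14.21, 13.73, 12.95 and 12.98 on arrays 1 to 4. In the longer fibroblast list 5 of 12 lay above (41.7%, against 52.6% of all genes), with Fbln1 at 9.91 and Col5a1 at 8.84.

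Of the 8 measured Y chromosome genes and X inactivation transcripts 0 lay above background by limma and 7 lay below. Over all genes the shares were 52.6% above and 27% below. The Y-linked Eif2s3y, a translation factor gene, was below the limit at 4.60 ± 0.63. So was the histone demethylase gene Kdm5d at 5.20 ± 0.60, except without array 1 or 2 (differences -0.44 and -1.07). Xist, the RNA that coats the inactive X chromosome, read 8.07 on array 1 and 6.09, 6.39 and 6.49 on the others. Each value was over its own limit, but Xist was not told from it at an adjusted p of 0.0812 by limma. These Xist levels rest on a probe set that can cross-hybridize: without such probe sets its difference from the limit was -1.31. Averaging over the probe sets of Xist gave -0.67, and a limit from silent tissue genes gave -0.09.

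Calls followed the base composition of promoters. Of 14452 genes with a window, split into 5 groups of nearly equal size by CpG ratio, 13.5% of the lowest group lay above background, against 35.1%, 65.6%, 76.4% and 82.8% of the next groups. The CpG ratio is the count of CG pairs over that expected from the C and G content of the window. Pigment genes lay against this order: the median ratio of the 9 with a window was 0.225, against 0.80 for genes above background. Tyr had no CG pair in its window and a ratio of 0, and Tyrp1 had 0.225, and both were among the bright genes. The median ratio of tissue lists ranged from 0.159 for keratinocyte genes over 0.222 for liver and 0.28 for muscle to 0.543 for cancer-testis and germline genes and 0.696 for neuron genes. The TATA box letters TATAAA stood in 6.31% of windows of genes above background and 16.2% of those of genes below the limit. Among the pigment genes they stood in that of Tyr.

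**Figure D5:**
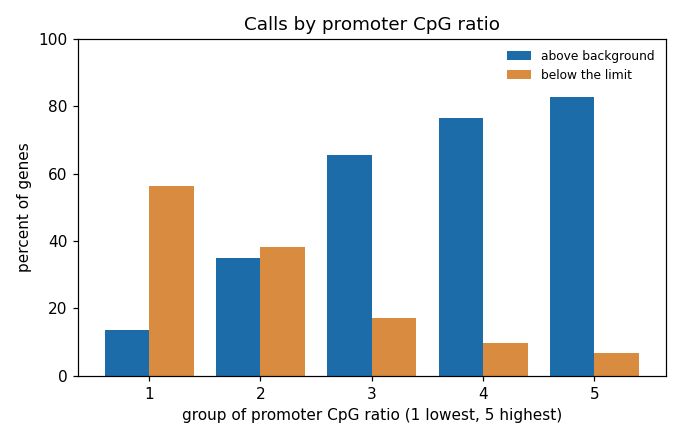
Percent of genes above background and below the limit in 5 groups of promoter CpG ratio, from the lowest (1) to the highest (5), over 14452 genes with a RefSeq window. The share above rises from 13.5% to 82.8% and the share below falls from 56.3% to 6.78%.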

How the data were processed

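RNA from 4 empty-vector replicates was hybridized to 1-colour Affymetrix-type arrays of 45101 probe sets. The deposited values are linear intensities; MAS5 is named in the submitters' processing notes, with a version not given in the sources used here, and a label names dChip, per the labels. Each array has a trimmed mean of 500.003, so the authors scaled the intensity values to one target. Here log2(intensity + 16) was computed, 64 control probe sets were left out and quantile normalization was applied over the 4 arrays. The platform's annotation table gave 34958 probe sets 1 symbol, 932 several and 9160 none listed; the last 2 kinds were not used.

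Each gene's level minus the background limit of its array was tested against 0, two-sided, with limma 3.58.1 in R 4.3.3 (lmFit, eBayes with trend; 3 residual and 8.66 prior degrees of freedom). P-values were adjusted by Benjamini-Hochberg over 18193 genes, with a threshold of 0.05. The calls above background were also tried in 10 runs of simulated data with 18193 genes each. A small part of the genes was set at known distances from a limit shared by all arrays, with independent errors. Of those set 1 log2 unit over the limit 94% were called above, and of those at the limit 1%. Differences that the real arrays share across genes were not simulated.

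The 61 gene lists hold 1213 genes, of which 1120 matched by symbol, and are described by counts only. The arrays and lists were chosen with earlier results of these data known. Named genes were the 30 brightest, the brightest members and exceptions of each list, the 15 with the largest SD, and a set of lineage, oncogene and antigen genes; others named were chosen after their values were seen. Alternatives were the normalization, pseudocounts of 1 and 64, other limits, other probe set rules, a filter on dim genes, a count without a test and leaving out each array. Figures come from matplotlib 3.10.9 under Python 3.11.15.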

Additional observations from a re-analysis of the deposited data

Results flagged for a closer look

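Of 238 named genes 31 had 1 of the 4 arrays standing apart, in that its gap to the nearest other array divided by the whole range exceeded Dixon's 95% critical value. Chance gives about 1 such gene in 20, and arrays share their differences across genes. Array 2 stood apart for 18 of these genes, array 1 for 12, array 4 for 1 and array 3 for 0.

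Array 2 was low for the interferon genes Rsad2 (13.28), Ifit1 (12.24), Ifit3 (10.92), Usp18 (8.75), Gbp2 (8.42), Gbp3 (7.66), Igtp (8.04), Irgm1 (9.66), Oas1b (6.43) and Ddx58 (10.996), and for Mdm2 (10.54), Ccnd1 (10.59) and Rictor (11.56). It was high for Cth (11.98), Ddr2 (12.51), Plin2 (13.31), Bmp4 (5.48) and Rpl3l (5.60). Both of the last genes stayed below their array's limit of 5.96.

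Array 1 was high for Pik3cd (13.29), E2f5 (13.63), Npc2 (15.12), Slc45a2 (13.85), Cryab (13.53), Dusp6 (12.46), Ptch1 (11.64) and Twist1 (5.97). It was low for Gpnmb (14.80), Vim (14.13), Timp2 (11.70) and Dlgap5 (6.01). Array 4 was low for Cdh1 (5.51). The cause of these differences was not tested.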

How the results depend on the processing

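Over 14 alternatives the count of genes above background lay between 8911 and 9990, and that of genes below the limit between 4087 and 7564, the highest value coming with a limit from silent tissue genes. Of 204 named genes that were called, 183 kept their call in all alternatives; of 2820 calls compared 46 were lost and 4 turned. The turned differences were -0.0833 for Axl, -0.45 for Tap1 and -0.33 for Map2 with the mean of all probe sets, and -0.54 for Tmsb10 without probe sets marked for cross-hybridization. With the limit from silent tissue genes 6 Hox genes, 8 receptor tyrosine kinases, 6 integrins and 0 pluripotency genes lay above it. With the mean of all probe sets 1 class II, 1 muscle, 1 erythroid and 0 pluripotency genes did, and 19 of the 30 brightest genes were shared. With values as deposited 1 muscle gene lay above. With the lowest 40% of genes left out, 1 class II, 1 muscle and 1 erythroid gene did. Counting genes over the limit on all 4 arrays with no test gave 1 each for class II, Y chromosome and Xist, liver, muscle, erythroid and leukocyte lists. Leaving out 1 array at a time gave 0 to 1 for the class II, germline, liver, muscle, leukocyte and keratinocyte lists, 0 to 2 for pluripotency, and 1 to 2 for the photoreceptor and lens and the endothelial lists. The median SD was 0.28 with a pseudocount of 64. Among genes with 1 probe set 6.34% of the group with the lowest CpG ratio lay above background. When any listed window of a gene was used, an alternative added after the data were seen, CATGTG stood in 12% of all genes and 7 pigment genes, TATAAA in 8.12% of genes above background and the interferon core in 3.63% of all genes and 7 interferon genes. The cause of these shifts was not tested. No paired analysis was possible because the arrays form 1 group with no contrast. Dim probe sets limit what can be told: the 1820 genes with means of 5.993 to 7.350 had a median SD of 0.51.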

Other observations

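Secreted and surface genes of immune relevance, beyond those already given, fell into a bright and a dim group. Mif, an inflammatory cytokine, stood at 14.65, and the growth factors Vegfa and Csf1 at 9.48 and 8.53. Il18, an inflammasome product, stood at 8.44. Of the checkpoint and death receptor list 7 of 15 measured members lay above background (46.7%, against 52.6% of all genes). Cd47, which signals to phagocytes, stood at 11.38 and Lgals9 at 10.76. The nectin family members Pvr and Nectin2, ligands of lymphocyte receptors, stood at 9.93 and 9.17, and Cd276 at 7.59. The costimulatory gene Cd86 lay below the limit at 4.85, a call lost without array 2 (difference -1.16), while Cd80, Pdcd1lg2 and Fasl were not told from it.

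Some genes above background divided the arrays in other ways. Map7d2, a microtubule-binding protein gene, read 10.49 and 9.91 on arrays 1 and 2 and 7.19 and 7.20 on arrays 3 and 4. Mest, an imprinted gene, read 10.32, 8.30, 7.22 and 7.41. Trim30a, an interferon-induced gene, read 11.60, 7.27, 9.73 and 9.15. These patterns were noticed in the values, and no cause was tested.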
